A study of Glycine max with 4 samples.

Results

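The genes examined were the soybean CONSTANS-like genes COL1a (Glyma.08G255200), COL1b (Glyma.18G278100), COL2a (Glyma.13G050300) and COL2b (Glyma.19G039000), on chromosomes 8, 18, 13 and 19 by their identifiers. They were taken by identifier from the table of read counts, without use of their values, and are 4 of its 56044 genes. All 4 had reads in every library and passed the filter on low counts in both main comparisons. RNA was sequenced from 5 cm shoot tips of greenhouse-grown soybean, Glycine max cultivar Thorne, at 1 month, with 1 library per plant. The tagged group (tagged 1 and tagged 2) was 2 transgenic plants positive for the insertion mmPing20F, an activation tag built on the small rice transposable element mPing, at chromosome 8 position 2785626. The untagged group was negative for that insertion and held 2 unlike plants: untagged 1 was transgenic, carrying the construct that expresses the transposase, and untagged 2 was an untransformed Thorne plant. The tagged plants thus share 1 insertion, and there was only 1 untransformed plant. Untagged 1 is called the transgenic control below. The sources used here give neither the hour of harvest nor the day length.

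CONSTANS is a nuclear protein with B-box zinc fingers at one end and a CCT domain at the other. In Arabidopsis it accumulates in the light of long days and switches on the florigen gene FT in leaf veins, which links day length to flowering. Its transcript follows a daily rhythm set by the circadian clock, and the protein is degraded in darkness. Soybean is a short-day plant whose genome holds most such genes as duplicated copies, here written a and b. Soybean COL1a and COL1b have been described as repressors of flowering under long days, and the COL1 and COL2 genes can stand in for CONSTANS in Arabidopsis.

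The libraries held between 27900266 and 49210060 reads assigned to genes. The untransformed plant's library stood apart from the other 3 across the whole transcriptome: in edgeR's quasi-likelihood test of that library against the 3 transgenic ones, 20065 of 40884 tested genes (49.1%) passed an adjusted p of 0.05. That share is the background for every result below that rests on that library, and the comparison of tagged with untagged plants is given with and without it. Transgenic status, the individual plant and its library cannot be told apart, because 1 library stands for untransformed plants. Genes that mark a tissue or cell type are not named in the files or the reference, so the labelled tissue was not checked against markers.

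Both COL1 genes exceeded their transgenic levels about 20-fold in the untransformed plant, and the COL2 genes, which gave few reads, differed far less. COL1a had 658 normalized counts (reads divided by the authors' size factor for the library) in tagged 1, 707 in tagged 2, 489 in the transgenic control and 12288 in the untransformed plant. COL1b had 1341, 1371 and 1247 normalized counts in the same 3 transgenic libraries and 27883 in the untransformed plant. The untransformed plant was thus far above each of the others for both copies. The transgenic plants lay within 1.45-fold of each other for COL1a and within 1.10-fold for COL1b. In these tips, fewer cells of a type and less RNA per cell cannot be told apart.

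**Figure D1:**
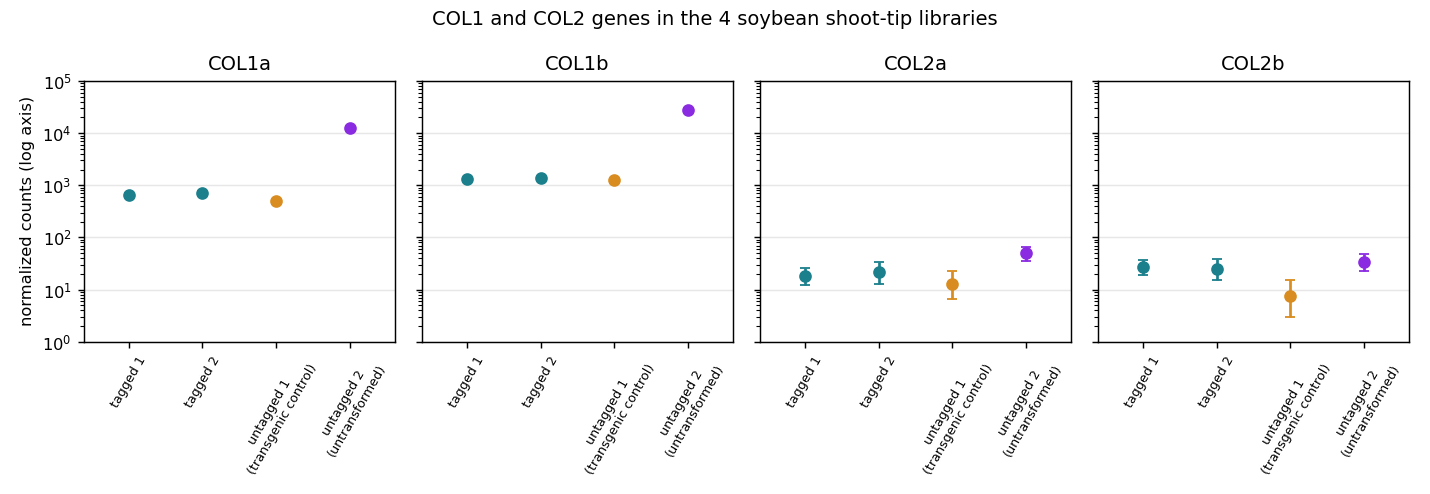
Normalized counts of COL1a, COL1b, COL2a and COL2b (log axis) in the 4 libraries; points are single plants and bars are exact 95% Poisson intervals, which cover counting error only. COL1a and COL1b stand at 12288 and 27883 in the untransformed plant, against at most 707 and 1371 in the transgenic plants, and the COL2 genes stay under 50 in every library.

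The question of how the untransformed plant differed from the transgenic ones was tested with 1 library against 3, so the lone library is assumed to vary like the others. This comparison was chosen with earlier results of these data known. COL1a was at 618 ± 114 normalized counts in transgenic plants (SD, n = 3) and rose 19.6-fold in the untransformed plant, a log2 difference of 4.29 ± 0.21 (SE, 95% interval 3.79 to 4.79, edgeR adjusted p = 4.9e-05). COL1b was at 1320 ± 64.6 in transgenic plants (SD, n = 3) and rose 20.8-fold, a log2 difference of 4.38 ± 0.16 (95% interval 3.99 to 4.77, edgeR adjusted p = 2.8e-05). Against single libraries, the ratio ran from 17.4 (tagged 2) to 25.1 (transgenic control) for COL1a and from 20.3 (tagged 2) to 22.4 (transgenic control) for COL1b. Counting error was small beside these ratios, the widest interval being 22.9 to 27.6 for COL1a against the transgenic control. Scaled by the library's total count (CPM), the COL1 genes together were at 1001 CPM in the untransformed plant and 60.2, 62.5 and 52.8 CPM in tagged 1, tagged 2 and the transgenic control. The fold depended on the scaling: with upper-quartile scaling it was 17.3 for COL1a and 18.4 for COL1b.

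COL2a was the only other member past the threshold, and its call was not firm. COL2a had 18.2 normalized counts in tagged 1, 21.5 in tagged 2, 12.7 in the transgenic control and 49.3 in the untransformed plant, from raw counts of 27, 18, 12 and 42. The untransformed plant was the highest of the 4, with a 95% Poisson interval of 35.5 to 66.7 normalized counts, which covers counting error only. The log2 difference was 1.47 ± 0.49 (95% interval 0.30 to 2.64, edgeR adjusted p = 0.0444), a 2.77-fold rise from 17.5 ± 4.41 normalized counts in transgenic plants (SD, n = 3). This call was lost in 6 of 11 alternatives, while the log2 difference stayed above 0. It was lost in DESeq2 (log2 difference 1.50), with upper-quartile scaling (1.29) and without any 1 of the transgenic libraries (1.30 to 1.62). It was also lost in a 3-group fit chosen after the data were seen (1.30). That fit kept all 4 libraries and compared the untransformed plant with the tagged plants only, leaving the transgenic control as its own group.

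COL2b did not pass. It had 27.0 normalized counts in tagged 1, 25.0 in tagged 2, 7.43 in the transgenic control and 34.1 in the untransformed plant, from raw counts of 40, 21, 7 and 29. The untransformed plant was highest here too, but the tagged plants lay within its counting interval of 22.8 to 48.9. The log2 difference was 0.74 ± 0.71 (95% interval -0.97 to 2.44, edgeR adjusted p = 0.421), so neither no change nor a rise of the size seen for COL2a lies outside the interval.

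Of the 4 genes, 3 were called higher in the untransformed plant and 0 lower, with the limit on COL2a given above; of all tested genes, 25.8% were called higher and 23.3% lower, and with upper-quartile scaling 21.2% higher and 28.7% lower. All 4 genes had their highest level in the untransformed plant, an order that 43.3% of tested genes showed. Being called or being highest is therefore common among genes in this comparison. The size of the COL1 difference was less common: 1.90% of tested genes had a log2 difference at or above that of COL1b and 2.01% at or above that of COL1a. The corresponding shares were 12.8% for COL2a and 24.4% for COL2b. The COL1 shares depended on the low-count filter. Asking for at least 10 counts in 2 libraries gave 0.821% for COL1b and 0.887% for COL1a. With no filter they were 2.33% and 2.75%. The median log2 difference was -0.033 over all tested genes. Upper-quartile scaling moved that median to -0.21, and with it COL1a to 4.11 and COL1b to 4.20, so relative to the median the COL1 differences were the same size.

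**Figure D2:**
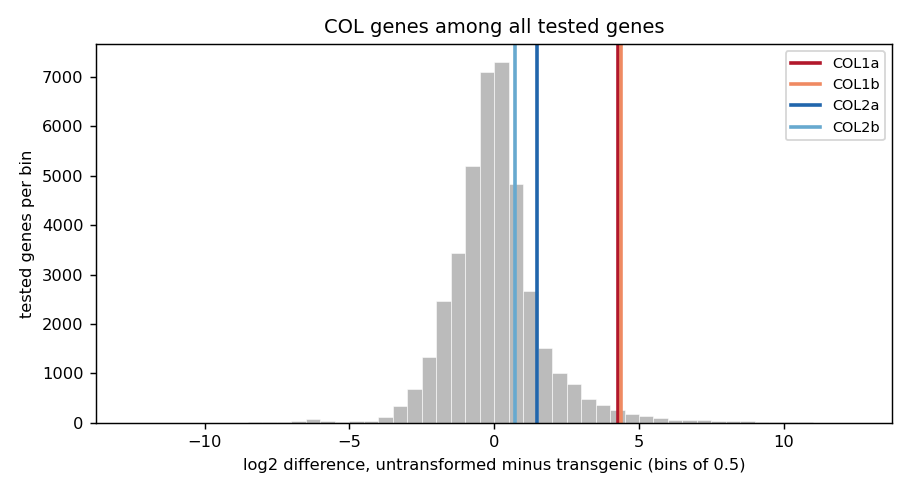
Histogram of the log2 difference between the untransformed and the 3 transgenic plants over 40884 tested genes (bins of 0.5), with lines at the 4 COL genes. COL1a and COL1b, at 4.29 and 4.38, lie in the upper tail, and COL2a and COL2b, at 1.47 and 0.74, on the shoulder of the distribution.

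The COL1 copies kept close to the same proportion, while the normalized counts of each differed about 20-fold between the untransformed and the transgenic plants. COL1a made up 32.9% of the reads of the COL1 pair in tagged 1 (exact Clopper-Pearson 95% interval 31.2 to 34.7), 34.0% in tagged 2 (31.8 to 36.3), 28.2% in the transgenic control (26.0 to 30.4) and 30.6% in the untransformed plant (30.1 to 31.1). The untransformed plant lay inside the range of the transgenic plants. On the log2 scale the ratio of COL1a to COL1b was -1.18 in the untransformed plant and -1.11 on average in the transgenic plants, a difference of -0.072 (exact permutation test over libraries, two-sided p = 1, n = 4). Library size cancels in this ratio, and gene length cancels between libraries but not between copies, so the shares do not say which copy is the more active. The exact permutation test of 1 library against 3 cannot give a p below 0.25.

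COL1a's share in both tagged plants exceeded that in either untagged one, with a mean log2 ratio of -0.99 against -1.27 and a difference of 0.28 (exact permutation test, two-sided p = 0.333, n = 2 per group, the smallest this design allows). The share in tagged 1 and tagged 2 lay above the counting intervals of both untagged plants. COL1a and COL1b are duplicated copies, and reads that match both could be split or dropped by the authors' counting in a way the sources used here do not state; the shares are uncertain to that extent.

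For the COL2 pair, COL2a's share was 40.3% in tagged 1 (28.5 to 53.0), 46.2% in tagged 2 (30.1 to 62.8), 63.2% in the transgenic control (38.4 to 83.7) and 59.2% in the untransformed plant (46.8 to 70.7). Both tagged shares lay below both untagged shares, the reverse of the order for COL1a. They rest on 67, 39, 19 and 71 reads, and the 4 counting intervals overlap one another. The untransformed minus transgenic difference in log2 ratio was 0.54 (exact permutation test, two-sided p = 0.75, n = 4), and the tagged minus untagged difference was -1.05 (exact permutation test, two-sided p = 0.333, n = 2 per group, again the smallest possible).

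**Figure D3:**
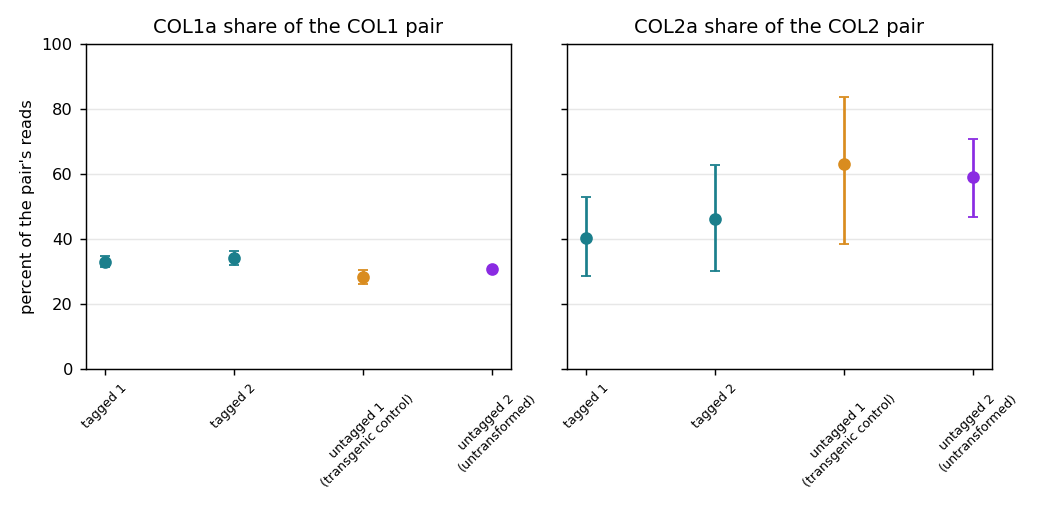
Share of a pair's reads that came from the a copy, in percent, for COL1 and COL2 in the 4 libraries; bars are exact 95% binomial intervals. The COL1a share stays between 28.2% and 34.0%, and the COL2a share runs from 40.3% to 63.2% with overlapping intervals.

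The COL1 pair also moved apart from the COL2 pair. COL1 reads outnumbered COL2 reads 44.2 to 1 in tagged 1, 44.7 to 1 in tagged 2, 86.1 to 1 in the transgenic control and 482 to 1 in the untransformed plant. The untransformed plant was above each transgenic plant, by 3.12 on the log2 scale over their mean (exact permutation test, two-sided p = 0.25, n = 4, the smallest possible). Within the transgenic plants, the untagged one had the higher ratio, from 19 COL2 reads in all.

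The study's own comparison set the tagged plants against the untagged plants. In it 0 of the 4 COL genes passed, as did 0 of 38824 genes over the whole table (0%), with 444 genes (1.14%) at an unadjusted p under 0.05 in edgeR's test. None of the 4 genes separated the groups, the tagged plants lying between the untagged ones for each; over all tested genes, both tagged plants were above both untagged plants at 14.7% and below them at 14.4%. COL1a was at 683 ± 34.5 normalized counts in the tagged group and 6389 ± 8343 in the untagged group (SD, n = 2 each), a log2 difference of -3.23 ± 1.51 (95% interval -7.30 to 0.85, edgeR adjusted p = 0.947). COL1b was at 1356 ± 21.5 and 14565 ± 18835, a log2 difference of -3.43 ± 1.50 (95% interval -7.47 to 0.61, edgeR adjusted p = 0.947). The untagged SD exceeded the untagged mean for both genes, and 1 library decided the value.

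COL2a differed by -0.64 ± 0.80 on the log2 scale (95% interval -2.80 to 1.51, edgeR adjusted p = 0.947) and COL2b by 0.33 ± 0.84 (95% interval -1.93 to 2.60, edgeR adjusted p = 0.956). DESeq2, which called 0.0489% of all genes, and limma-voom, which called 0%, each called 0 of the 4 as well. The unadjusted p from edgeR was 0.0943 for COL1a and 0.0792 for COL1b, and from DESeq2 it was 0.0048 and 0.0022, with DESeq2 adjusted p of 0.524 and 0.38. Against the untransformed plant alone, COL1a and COL1b were called lower in tagged plants (log2 differences -4.15 and -4.34, edgeR adjusted p = 3.6e-05 for each), among 10419 of 40640 tested genes called lower there (25.6%).

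**Figure D4:**
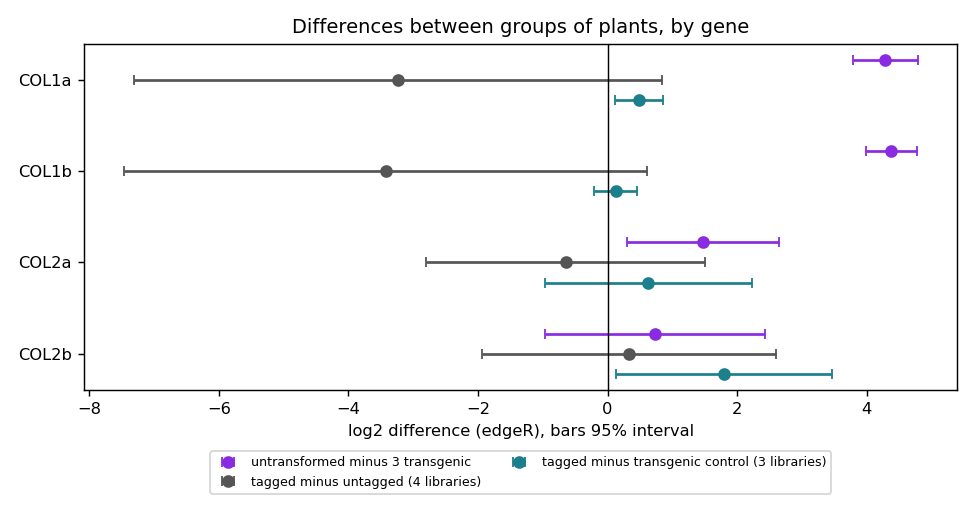
Log2 differences of the 4 COL genes from edgeR, with 95% intervals, for untransformed minus transgenic plants, tagged minus untagged plants, and tagged minus the transgenic control. The COL1 intervals for the untransformed plant lie above 3, those for tagged against all untagged plants span 0, and the difference reverses sign for COL1a, COL1b and COL2a when the untransformed plant is left out.

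Among the 3 transgenic plants, where tagged plants face a single untagged plant, 0 of the 4 genes passed, and 4 of 39528 genes did (0.0101%). All 4 COL genes had higher levels in both tagged plants than in the untagged one, an order that 34.6% of genes tested in the 4-library comparison showed. COL1a was 1.35-fold (tagged 1, counting interval 1.20 to 1.51) and 1.45-fold (tagged 2, 1.28 to 1.64) the untagged level, with a log2 difference of 0.49 ± 0.15 (unadjusted p = 0.0173, adjusted p = 0.416, edgeR). COL1b differed by 0.13 ± 0.14 (95% interval -0.20 to 0.46, edgeR adjusted p = 0.821), with levels within 1.10-fold of each other in these 3 plants. COL2b was 3.63-fold and 3.37-fold the untagged level, from 7 reads there, with a log2 difference of 1.80 ± 0.70 (unadjusted p = 0.0379, adjusted p = 0.503, edgeR). COL2a differed by 0.63 ± 0.67 (95% interval -0.97 to 2.23, edgeR adjusted p = 0.816). DESeq2 on the same 3 libraries called 236 of 39528 genes (0.597%), none of them COL1a or COL1b, and gave COL2a and COL2b no adjusted p. At an unadjusted p under 0.05 in edgeR, 2 of the 4 genes and 9.48% of all tested genes were past the limit. COL1a is the only one of the 4 on the chromosome of the tag; 2200 identifiers lie between it and Glyma.08G035100, which alone carries a fold change in the authors' deposited table.

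Each gene's pattern over the 4 libraries was compared with genes tested in tagged against untagged plants that averaged 50 or more normalized counts. The measure was the root mean square difference of log2(normalized count + 1) after each gene's own mean was taken off. With 4 libraries, 1 of them far from the rest, this is a description of likeness only. The gene closest to COL1b was Glyma.02G109800, 0.021 away, with 87.0, 85.8, 78.5 and 1811 normalized counts in tagged 1, tagged 2, the transgenic control and the untransformed plant. The gene closest to COL1a was Glyma.13G289600, 0.041 away, with 279, 321, 208 and 5249 in the same order. The 2 COL1 copies were 0.152 apart. Of 32833 genes compared, 24 were closer to COL1a than COL1b was, and 14 were closer to COL1b than COL1a was.

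Within a distance of 0.25, COL1a had 95 genes (0.289%), COL1b 75 (0.228%), COL2a 1301 (3.96%) and COL2b 16 (0.0487%). The COL2 copies were 0.513 apart, farther from each other than the COL1 copies. COL2a and COL2b were 1.24 and 1.55 from COL1a. The reads behind the COL2 patterns are few, so counting error takes a larger part of these distances.

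**Figure D5:**
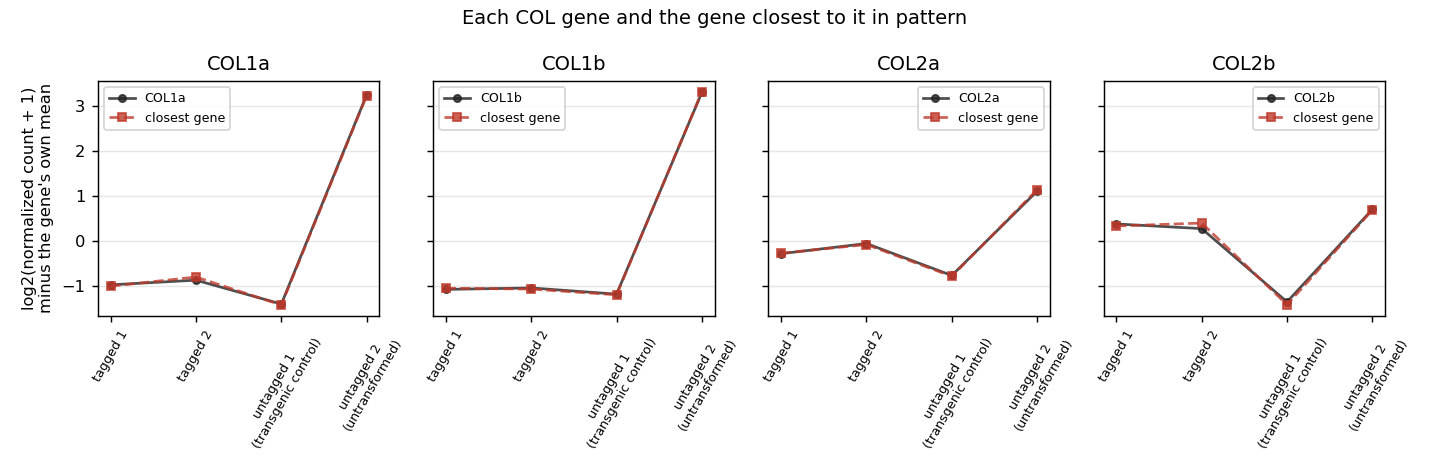
Log2(normalized count + 1) minus the gene's own mean over the 4 libraries, for each COL gene (black) and for the gene closest to it in pattern (red); lines join the values of 1 gene. COL1a and COL1b show a single high library, the untransformed plant, and COL2b a single low one, the transgenic control.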

How the data were processed

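Read counts per gene were used as deposited by the authors; their tools were HISAT2 2.1.0 and HTSeq 0.6.1, with CASAVA 1.8 and DESeq2, per the submitters' processing notes. The sources used here do not state the genome build, the annotation or the strand setting. A second deposited table holds a signal scaled by the authors, the counts divided by a size factor per library (0.839 to 1.48), which gave back whole numbers within 0.01 for 100% of values; these are the normalized counts. The authors' single fold ratio in that table belongs to no COL gene and was not used. No identifier of the files was found among the 59048 genes of the RefSeq table (Glycine_max_v4.0), so the COL names are those given with the identifiers; that table has COL1a as a synonym of a gene COL2A on chromosome 8, and a gene COL2B (synonym COL2c) on chromosome 18, the chromosome of COL1b here, so its numbering of these names differs. No sequences are printed for the same reason, and no other flowering gene could be named.

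All genes were tested in edgeR 4.0.16 (R 4.3.3), quasi-likelihood test, TMM scaling, default low-count filter by group, Benjamini-Hochberg adjustment over all tested genes at 0.05. Standard errors are the absolute difference over the square root of F, and 95% intervals use the test's degrees of freedom. Alternatives included limma-voom (limma 3.58.1), DESeq2 1.42.0, other scalings and filters, a robust fit, a replicate block and left-out libraries. A 3-group fit of all 4 libraries set the untransformed plant against the tagged plants only, with the transgenic control as its own group. The fits were tested on simulated data. The simulated spread between plants was below that of the tagged against untagged data (edgeR's biological coefficient of variation 0.457). It was also somewhat below that of the untransformed against transgenic data (0.169). The simulation thus does not fully cover the spread of either comparison. Genes were named by rule: the 4 members and the gene closest in pattern to each, of which the COL1 ones are identified. Glyma.08G035100 is outside that rule and is named only as the gene that carries the authors' fold ratio. The members, tests and lists were chosen with earlier results of these data known. The plants are single individuals, so p-values rest on the spread between these plants within a group. Where the untransformed plant stands alone, that spread comes from the transgenic plants only. Those p-values hold no spread between untransformed plants. Between any 2 libraries, chi-square per degree of freedom reached 17.6 or more, so no library repeated another within sampling noise. Intervals from counts cover counting error only.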

Additional observations from a re-analysis of the deposited data

How the results depend on the processing

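The rise of COL1a and COL1b in the untransformed plant kept its direction and its call in 11 of 11 alternatives, with log2 differences of 4.11 to 4.39 and 4.20 to 4.40. COL2b stayed uncalled in 11 of 11, from 0.36 to 1.06. The number of COL genes called in this comparison was 3, and 2 where COL2a was lost; leaving out any transgenic library gave 2. In the tagged against untagged comparison the count of called COL genes was 0 under every tool, scaling and filter and with the replicate block, and 0 to 2 when 1 library was left out, the 2 coming without untagged replicate 1. Leaving out 1 library moved COL1a from -4.15 to 0.49, COL1b from -4.34 to 0.13, COL2a from -1.30 to 0.63 and COL2b from -0.36 to 1.80. The signs of COL1a, COL1b and COL2a turned without untagged replicate 2, the untransformed plant, and that of COL2b without untagged replicate 1. DESeq2 without the untransformed plant, chosen after the data were seen, gave 0.49 for COL1a and 0.13 for COL1b. With the replicate number as a block, the log2 differences were -1.85, -2.12, -0.36 and 0.64 for COL1a, COL1b, COL2a and COL2b, the count 0. Nothing in the labels pairs the plants, so the numbers were not treated as pairs. Libraries with the same number had deviations correlated at -0.052 (38824 genes). That value cannot tell whether plants were paired, because the untagged deviations hold the difference between the untransformed plant and the transgenic control. The untransformed minus transgenic difference in the ratio of COL1a to COL1b ran from -0.19 to 0.0060 when a transgenic library was left out, with the sign turned without tagged replicate 2; the cause was not tested. The comparison of the untransformed plant has no replicate on its side. Depth limits the COL2 genes, with 7 to 42 reads per library.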

Other observations

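The genes beside the COL genes in identifier order had medians of -0.88 to -0.077 in the log2 difference between the untransformed and the transgenic plants, beside -0.033 over all tested genes; 25.8% of all tested genes were called higher and 23.3% lower in that comparison, in edgeR's test at an adjusted p of 0.05. Of the 10 identifiers on each side of COL1a, 11 were tested; their median was -0.077 (range -1.01 to 3.81), with 4 called higher and 3 lower. Beside COL1b, 11 were tested, with a median of -0.26 (range -1.14 to 2.39), 4 higher and 4 lower. Beside COL2a, 17 were tested, with a median of -0.26 (range -2.00 to 2.09), 3 higher and 5 lower. Beside COL2b, 8 were tested, with a median of -0.88 (range -2.23 to -0.36), 0 higher and 4 lower, while COL2b itself was at 0.74. All 8 were below 0, so 0 were higher at an unadjusted p of 0.05 too.

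Among 32967 genes that averaged 50 or more normalized counts, 532 were at least 16 times higher in the untransformed plant than the mean of the transgenic plants. In 102 of those 532, COL1a and COL1b among them, the transgenic plants lay within 1.5-fold of each other. COL1a was near that limit at 1.45-fold, and COL1b was at 1.10-fold. How many of all 32967 genes lay within that limit was not counted, so the 102 are a description only.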
